A study of Mus musculus with 10 samples.

Results

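The mitochondrial ribosomal proteins are the nuclear-encoded proteins of the ribosome inside mitochondria, and their mRNAs were compared between the prefrontal cortex of Arid1b+/- mice (HT) and wild-type littermates (WT). They were taken as the protein-coding genes of the deposited table whose symbol is Mrpl or Mrps followed by a digit, leaving out pseudogene symbols. This rule uses no measured value, but it was chosen with earlier results of these data known. The rule gave 78 of the 18216 genes of the table, 49 with an Mrpl and 29 with an Mrps symbol, and all 78 passed the filter on low values, a mean of at least 10. The 10 male C57BL/6N mice, 5 of each genotype at postnatal day 10, gave 1 library each and are numbered from 1 to 5 within HT and within WT. The HT mice carry 1 truncating allele in exon 5 of Arid1b in all cells of the body, and the WT mice carry none. Arid1b encodes a DNA-binding subunit of BAF, a SWI/SNF complex that moves nucleosomes.

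The ribosome of mitochondria translates the few mRNAs of mitochondrial DNA, all of which encode subunits of the respiratory chain or of ATP synthase. Its rRNAs come from mitochondrial DNA, whereas every one of its proteins is made in the cytosol from nuclear genes, imported and assembled into a large and a small subunit. Part of the proteins descend from those of bacterial ribosomes, and the others were added during the evolution of mitochondria. Inherited loss of single members lowers oxidative phosphorylation and affects tissues of high energy demand, the brain among them. Some names mislead. Mrps18a and Mrps30 sit in the large subunit despite their names, and Mrps36 is now known as a subunit of the alpha-ketoglutarate dehydrogenase complex. By position, 51 members were therefore in the large subunit, 26 in the small subunit, and Mrps36 in neither.

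Values are normalised counts, the estimated reads of a gene divided by a size factor per library, and they summed to between 31106330 and 32106791 per mouse. Sequencing depth is unknown, so precision was taken from the spread between mice. Arid1b itself ranged from 1767 to 1987 in the HT mice and from 2662 to 3018 in the WT mice, without overlap, a log2 fold change of -0.59 ± 0.05 (SE, n = 5 per group, limma, adjusted p = 0.0001). All 10 markers of cortical excitatory neurons were measured, and their sum lay between 126059 and 156796. The 12 astrocyte markers summed to 175705 to 221006 in the HT mice, highest in HT2 and HT5, and to 160537 to 187772 in the WT mice, and 7 of the 12 were higher in HT with an unadjusted p under 0.05. The 10 microglia markers gave 3 such genes, also higher, where 4.71% of all genes tested were higher at that level. All 10 markers of the oligodendrocyte lineage had fitted values above 0 (median 0.24), with 1 at that level, where 48.8% of all genes tested were above 0. Their sum in HT was 124% of that in WT, ranging from 65801 to 89765 in HT and from 38667 (WT3) to 92337 in WT. The 10 striatal markers summed to 6659 to 7597 in HT5, WT3 and WT5 and to 14971 to 23176 in the other 7 mice. In bulk tissue, fewer cells of a type and less RNA per cell cannot be told apart.

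The comparison of HT with WT asked whether the mRNAs of mitochondrial ribosomal proteins change in the prefrontal cortex when 1 copy of Arid1b is lost. None of the 78 passed an adjusted p of 0.05 (limma, Benjamini-Hochberg over all 16781 genes tested), against a background of 0.0179% (3 genes). The smallest adjusted p of a member was 0.507. Below an unadjusted p of 0.05 were 2 members, Mrps22 and Mrps33, which is 2.56% of the 78 against 9.23% of all genes tested. Both were lower in HT, where the background was 4.52%, and no member was higher at that level, where the background was 4.71%. This split depended on the processing. With upper-quartile or quantile scaling it was 1 lower (Mrps22) and 1 higher (Mrps5), with the GC and length correction Mrps5 joined the 2 lower members, and with sample quality weights neither Mrps22 nor Mrps33 was among the 1 lower and 2 higher (Mrps26, Mrpl3 and Mrps5). The HT and WT values did not separate completely for any of the 78 members, against 1.62% of all genes tested. The fitted log2 fold change was below 0 for 49 members and above 0 for 29 (37.2%), where 48.8% of all genes tested were above 0. Its median was -0.03 against -0.0035 over all genes. The fitted values of the members ranged from -0.20 (Mrps22) to 0.17 (Mrps5).

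The data set bounds on the size of a change that could have been missed. Fitted levels in HT lay between 87.2% and 112% of the WT level, and 75 of the 78 were within 10% of it. The 95% interval lay inside 25% either way for 75 members (96.2%), while this was so for 61.5% of all genes tested. The genes tested include genes with lower means than any member, and these shares were not matched for expression. The interval lay inside 15% for 55 members and inside 10% for 9. The 3 members with wider intervals were Mrpl23 (72.9 to 130% of WT), Mrps35 (90.1 to 130%) and Mrps5 (99.8 to 127%). The mRNAs of this family also varied little between mice of one genotype, with a median coefficient of variation of 6.36%. This was 9.81% over all genes tested and 8.18% over the 3516 genes in the same range of expression, from the 10th to the 90th percentile of the members' means.

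**Figure D1:**
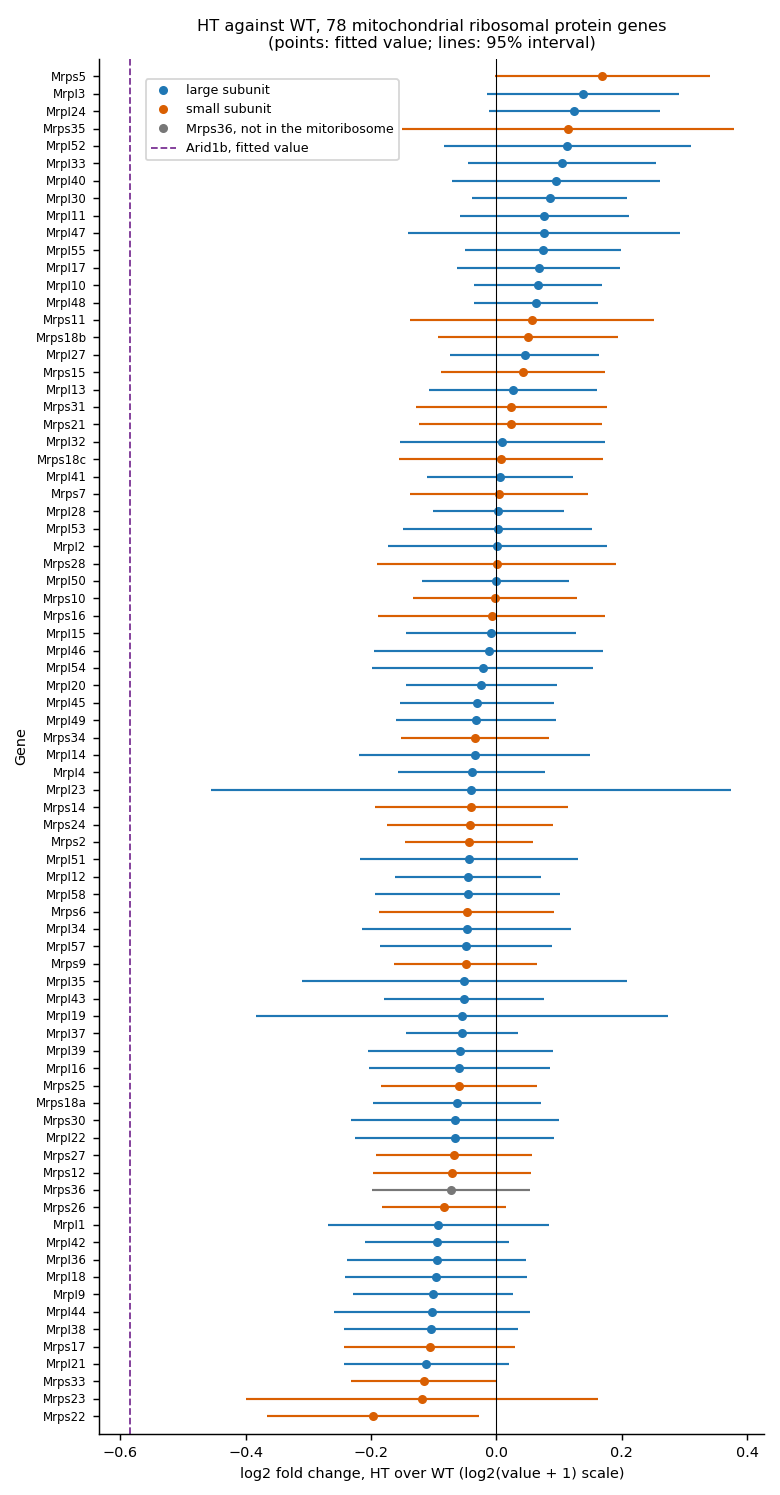
Fitted log2 fold change of HT over WT (x axis, log2(value + 1) scale) for each of the 78 mitochondrial ribosomal protein genes (y axis), with points for the fitted value, lines for the 95% interval and colours for the subunit. The points run from -0.20 to 0.17, the interval of 2 genes, Mrps22 and Mrps33, lies wholly below 0, and the dashed line marks Arid1b at -0.59.

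Next, the subunits were taken apart. In the large subunit 0 of 51 members had an unadjusted p under 0.05, with 19 fitted values above 0 and 32 below and a median of -0.03. In the small subunit these were 2 of 26, 10 above and 16 below, and a median of -0.04. Summed over the large subunit, the level per kilobase of principal transcript was 26013 ± 493 in HT and 26205 ± 345 in WT (SD, n = 5). For the small subunit it was 11774 ± 307 in HT and 11997 ± 157 in WT. The small subunit sum divided by the large subunit sum lay between 0.448 and 0.457 in the HT mice and between 0.453 and 0.462 in the WT mice, so that the groups overlapped. Members with a homologue in bacterial ribosomes numbered 48, of which 0 had an unadjusted p under 0.05, with 22 fitted values above 0 and 26 below. The 29 mitoribosome proteins without one included Mrps22 and Mrps33, with 7 values above 0 and 22 below. Fitted values above 0 made up 37.3% of the large and 38.5% of the small subunit. With a bacterial homologue the share was 45.8% and without one 24.1%, against 48.8% of all genes tested. The 2 of 26 are 7.69% and the 2 of 29 are 6.9%, both below the 9.23% of all genes tested, and the difference between these classes was not tested.

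Mrps22 and Mrps33, the pair with the smallest p, are small subunit proteins that bacterial ribosomes lack. Inherited variants of the human counterpart of Mrps22 are a cause of mitochondrial disease of infancy. Mrps22 read 421, 337, 404, 408 and 368 in HT1 to HT5 and 421, 417, 486, 467 and 429 in WT1 to WT5. All 5 HT mice were below the WT mean, HT2 was the lowest, and HT1 overlapped with the WT mice. The HT mean was 388 ± 34.5 and the WT mean 444 ± 30.7 (SD, n = 5). The log2 fold change was -0.20 ± 0.08 (SE, limma, adjusted p = 0.507), or 87.2% of WT with a 95% interval of 77.6 to 98.1%. The unadjusted p was 0.05 or above when HT2, HT5, WT3 or WT4 was left out, 4 of the 10 such fits, and the log2 fold change without HT2 was -0.15.

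Mrps33 had 1027, 949, 999, 1012 and 969 normalised counts in HT1 to HT5 and 999, 1007, 1127, 1138 and 1108 in WT1 to WT5. WT3, WT4 and WT5 were above every HT mouse, whereas WT1 and WT2 fell among the HT mice. The mean was 991 ± 31.7 in HT and 1076 ± 67.3 in WT, and the log2 difference was -0.12 ± 0.05 (SE, limma, adjusted p = 0.539). Its unadjusted p stayed under 0.05 in 3 of the 10 fits with 1 mouse left out (HT1, WT1 or WT2). Of the 31-base words of all annotated Mrps33 transcripts, 15.6% also occur in other genes, most of them in Gm5776, so its value is less certain than that of Mrps22, which shares 0.05%.

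The other members at the low end were Mrps23, Mrpl21 and Mrps17. Mrps23, another small subunit protein without a bacterial homologue, read 851, 783, 818, 501 and 748 in HT1 to HT5 and 842, 952, 740, 693 and 753 in WT1 to WT5. HT4 alone was far below the other 9 mice, and without it the log2 fold change turned from -0.12 (limma, adjusted p = 0.771) to 0.015. Mrpl21, a large subunit protein with a bacterial homologue, read 514, 456, 481, 492 and 466 in the HT mice and 545, 485, 510, 516 and 548 in the WT mice. The HT mice were shifted down with overlap, by -0.11 ± 0.06 (SE, limma, adjusted p = 0.574). For Mrps17, the homologue of bacterial S17, the values were 1306, 1260, 1175, 1009 and 1180 in the HT mice and 1291, 1243, 1248, 1297 and 1283 in the WT mice. The WT mice lay close together, HT4 was the lowest and HT1 the highest of all 10, and the log2 fold change was -0.11 ± 0.06 (SE, limma, adjusted p = 0.596).

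At the high end, Mrps5 is the homologue of bacterial S5, a protein near the site where mRNA enters the small subunit. Mrps5 read 1478, 1404, 1372, 1348 and 1202 in HT1 to HT5 and 1158, 1170, 1104, 1488 and 1155 in WT1 to WT5. All HT mice were above 4 of the WT mice, and WT4 was above every HT mouse. The log2 fold change was 0.17 ± 0.08 (SE, limma, adjusted p = 0.544), and 0.24 without WT4 (adjusted p = 0.319). Mrpl3, whose bacterial homologue reaches towards the peptidyl transferase centre, read 1523, 1477, 1658, 1414 and 1353 in the HT mice and 1281, 1300, 1217, 1550 and 1405 in the WT mice. All 5 HT mice were above the WT mean, WT4 and WT5 lay in their range, and the log2 fold change was 0.14 ± 0.07 (SE, limma, adjusted p = 0.557).

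Mrpl24, a large subunit protein with a bacterial homologue, had 682, 772, 675, 723 and 666 normalised counts in the HT mice and 690, 646, 586, 670 and 633 in the WT mice. All HT mice were above the WT mean with overlap (log2 fold change 0.12 ± 0.06, SE, limma, adjusted p = 0.557). Mrps35 and Mrpl52 lack bacterial homologues and had fitted values of 0.11 each (limma, adjusted p = 0.768 and 0.689). Mrps35 ranged from 379 to 574 in HT and from 329 to 490 in WT, with HT3 above all other mice. Mrpl52 ranged from 347 to 450 in HT, and 4 WT mice lay between 335 and 353 with WT4 at 440.

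**Figure D2:**
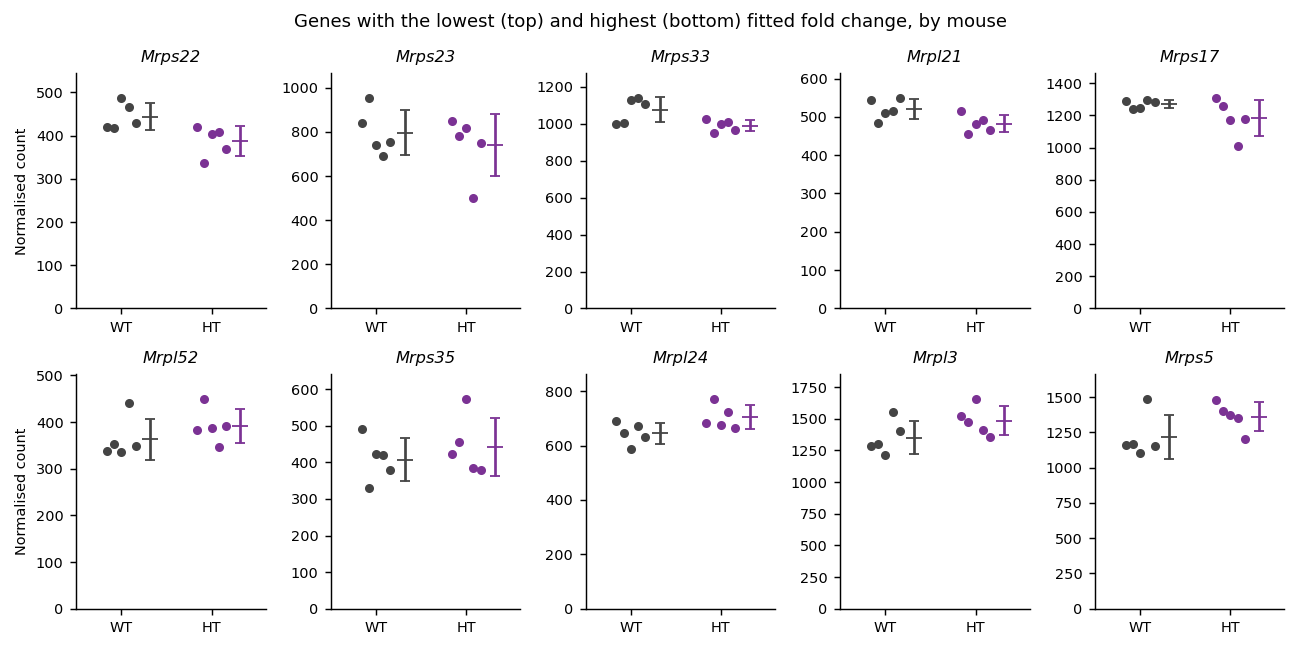
Normalised count (y axis, from 0) of each mouse for the 5 members with the lowest (top) and the 5 with the highest fitted fold change (bottom), WT in grey and HT in purple, with the mean and SD of 5 mice beside the points. The groups overlap in all 10 panels, single mice stand apart for Mrps23 (HT4 at 501), Mrps5 (WT4 at 1488) and Mrpl52 (WT4 at 440), and Mrps22 has all HT mice at or below 421.

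Several members were followed for their role, whatever their change. Mrps18a, Mrps18b and Mrps18c are 3 copies of the single bacterial protein S18, the first in the large and the others in the small subunit. Mrps18a (chr17:46110986-46128910 of GRCm38) had 835 ± 51.6 in HT and 873 ± 57.2 in WT (SD, n = 5). Mrps18b (chr17:35910379-35916389) had 542 ± 35.8 and 524 ± 32.4, and Mrps18c (chr5:100798627-100804471) had 328 ± 18.7 and 326 ± 23.6. Fitted log2 fold changes of the 3 copies were -0.06, 0.05 and 0.01 (limma, adjusted p = 0.744, 0.819 and 0.982), and none passed the threshold. For Mrps18c 32.8% and for Mrps18b 16.7% of the words occur in other genes, mostly predicted genes, against 0.163% for Mrps18a. The sign of Mrps18c changed with the scaling and with single mice left out.

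Mrpl12, the homologue of bacterial L7/L12 in the stalk that recruits translation factors, had 1206 ± 50.9 in HT and 1245 ± 78 in WT (limma, adjusted p = 0.792). Mrps12, whose bacterial homologue S12 lies at the decoding centre, had 639 ± 38.4 and 671 ± 26.3 (adjusted p = 0.692). Mrpl44, a large subunit protein related to ribonuclease III, read 394, 346, 365, 362 and 361 in the HT mice and 415, 426, 396, 348 and 383 in the WT mice. All HT mice but HT1 were below 4 of the WT mice, while WT4 was close to the lowest HT mouse, and the log2 fold change was -0.10 ± 0.07 (SE, limma, adjusted p = 0.645). Mrpl58 (Ict1), a peptidyl-tRNA hydrolase built into the large subunit that frees stalled ribosomes, had 660 ± 33.9 and 683 ± 63.6 (limma, adjusted p = 0.843). Its fitted -0.05 became 0.0085 without WT4, which was the highest mouse at 792. Mrps36, outside the mitoribosome, had 554 ± 36.3 in HT and 582 ± 10.7 in WT (limma, adjusted p = 0.690).

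Mrpl23, a protein at the exit tunnel in bacteria, was the member with the lowest mean and the widest interval. It read 102, 115, 90.9, 78.6 and 99.5 in the HT mice and 154, 65.9, 88.7, 110 and 97.6 in the WT mice. WT1 and WT2 were the highest and the lowest of all 10, so that the WT coefficient of variation was 31.5%, and the fold change could not be bounded within 25%. Its transcripts share 14.0% of their words with other genes, most of them with the processed pseudogene Mrpl23-ps1, which was listed at 384 ± 12.8 in HT and 352 ± 23.0 in WT. Such shares are taken over all annotated transcripts of a gene, with 4958 words for Mrpl23, while its principal transcript has 692 bases. The share within the principal transcript alone was not computed and can be much higher. Reads of Mrpl23 and of Mrpl23-ps1 could be split between them by the authors' estimation, and the value of either is uncertain. In the family as a whole, 18 members shared over 10% of their words with other genes and 30 shared under 1%. The share was largest for Mrpl53, where 84.4% of the words lie in the overlapping predicted gene Gm42688, and Mrps34 followed with 35.6%, mostly with Nme3. After Mrpl23, Mrpl19 varied most between mice of one genotype, with coefficients of variation of 19.7% in HT and 19.5% in WT.

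Levels between members were compared as normalised counts per kilobase of the principal transcript. The median was 442 per kilobase over the 78 members, 442 in the large and 440 in the small subunit. The 90th percentile was 6.09 times the 10th (932 against 153 per kilobase), although one copy of almost every protein goes into a mitoribosome. Mrpl42 was the highest at 1400 ± 79.9 per kilobase (SD over 10 mice), then Mrpl20 at 1282 ± 66.4 and Mrps21 at 1261 ± 84.2, and Mrpl20 and Mrps21 differed by less than the spread between mice. The lowest were Mrpl1 at 98.9 ± 8.57, Mrpl17 at 101 ± 5.92 and Mrps35 at 102 ± 16.5, which did not differ beyond that spread. None of these 6 passed the adjusted threshold between genotypes, with log2 fold changes from -0.10 (Mrpl42, limma, adjusted p = 0.586) to 0.11 (Mrps35, adjusted p = 0.768). The order depends on the length used. With the union of all annotated exons, Mrpl42 came to 253 and Mrps35 to 49.3 per kilobase, and 1 of the 3 highest and 1 of the 3 lowest stayed in those places. Cytosolic ribosomal proteins had a median of 3702 per kilobase over 76 genes, 8.37 times that of the mitochondrial ones.

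**Figure D3:**
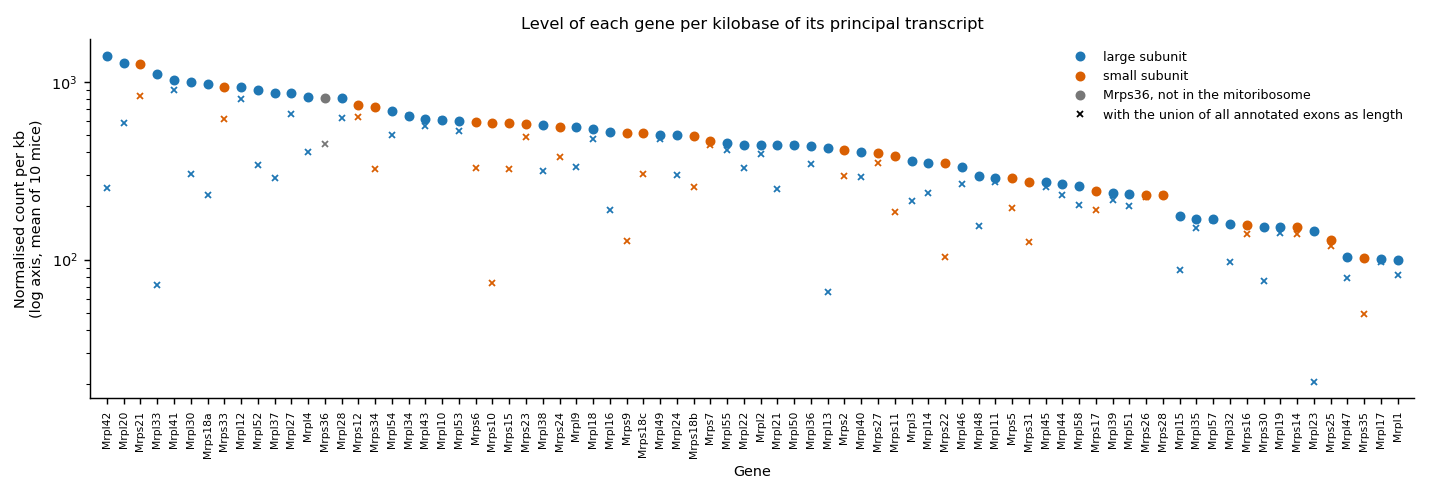
Level of each of the 78 genes as normalised count per kilobase (y axis, log scale, mean of 10 mice), ordered from Mrpl42 at 1400 to Mrpl1 at 98.9, with filled circles for the principal transcript as the length and crosses for the union of all annotated exons. Large and small subunit genes are spread over the whole order, and single crosses lie far below their circles, as for Mrpl42 at 253.

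Mouse by mouse, the members moved together by little. The mean over the 78 of the log2 deviation from each gene's 10-mouse mean was 0.045, -0.052, 0.005, -0.008 and -0.031 in HT1 to HT5. In WT1 to WT5 it was -0.001, -0.009, 0.000, 0.017 and 0.034. HT1 and HT2 were thus the highest and the lowest of all mice, and the WT mice lay inside the range of the HT mice. HT2 held the lowest value of the 10 mice for 22 members. Summed normalised counts over the 78 were 50471 to 53878 in the HT mice and 51890 to 53353 in the WT mice, or 0.162 to 0.168% of all normalised counts. HT2 was also the mouse with the highest sums of astrocyte markers (221006), of mitochondrial mRNAs (2434169) and of cytosolic ribosomal proteins (302162). It had the lowest sum of markers of mitochondrial content (70951, against 75837 or more in the other mice) and the lowest mean log2 deviation of excitatory neuron markers (-0.279). The part of these in the members' values was not tested. Without HT2 the median log2 fold change of the members was -0.01, and without HT2 and HT5, the 2 mice with the most astrocyte marker RNA, it was -0.0042. Without HT5, WT3 and WT5, the mice low in striatal markers, 0 members had an unadjusted p under 0.05, and the share over all genes in that fit of 7 mice was 3.87%, down from 9.23%.

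**Figure D4:**
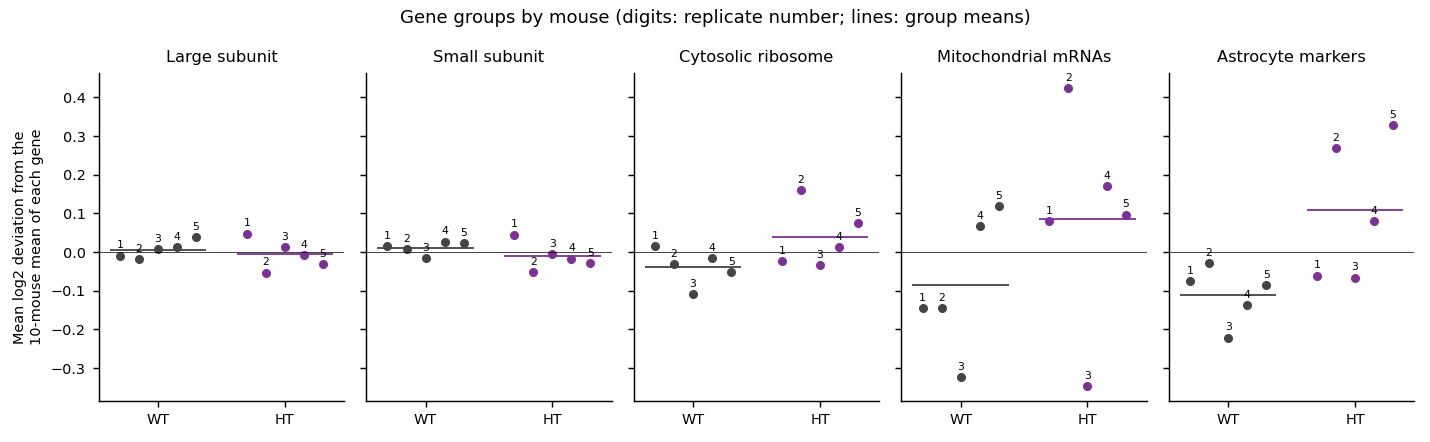
Mean log2 deviation from each gene's 10-mouse mean (y axis) in each mouse, for large and small subunit members, cytosolic ribosomal proteins, mRNAs of mitochondrial DNA and astrocyte markers, with the replicate number at each point and lines at the group means. Large and small subunit members stay between -0.053 and 0.048, whereas mitochondrial mRNAs reach 0.424 in HT2 and -0.346 in HT3 and astrocyte markers 0.328 in HT5.

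The rest of the mitochondrial translation machinery was set beside the members, and its counts stand against 9.23% of all genes with an unadjusted p under 0.05, of which 4.71% were higher and 4.52% lower. The list of mitoribosome proteins with other names had 7 entries, among them Oxa1l, the inner membrane insertase that binds the mitoribosome. Ict1 of this list is Mrpl58, and 0 of the other 6 (Dap3, Aurkaip1, Chchd1, Ptcd3, Gadd45gip1 and Oxa1l) had an unadjusted p under 0.05. Their values ran from -0.12 for Chchd1 (limma, adjusted p = 0.634) to 0.07 for Aurkaip1 (adjusted p = 0.682). The rRNAs mt-Rnr1 and mt-Rnr2 had log2 fold changes of 0.08 and 0.16 (adjusted p = 0.837 and 0.634), with HT2 the highest mouse for both at 90704 and 98336. Since libraries were selected for poly-A, these values need not follow the amount of rRNA. The 13 mRNAs of mitochondrial DNA had 11 fitted values above 0 (84.6%, against 48.8% of all genes tested) and a median of 0.15, and their sum in HT was 112% of that in WT. Among them 1 (7.69%) had an unadjusted p under 0.05, mt-Atp6, a subunit of ATP synthase, at 23363 ± 3867 in HT and 17104 ± 4165 in WT (limma, adjusted p = 0.475).

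Factors that build the mitoribosome and mature its rRNA gave 0 higher and 1 lower of 28 at that level (3.57%, against 4.52% of all genes). This was Rmnd1, an inner membrane protein needed for mitochondrial translation, which read 630, 750, 700, 732 and 532 in the HT mice and 829, 973, 794, 708 and 784 in the WT mice. HT5 was the lowest, only WT4 fell among the HT mice, and the log2 fold change was -0.29 ± 0.10 (SE, limma, adjusted p = 0.482). Of 14 translation factors 1 was lower (7.14%, against the same 4.52%), the ribosome recycling factor Mrrf, at 324 ± 28.1 in HT and 395 ± 49.5 in WT (limma, adjusted p = 0.477). A list of 20 genes that charge tRNAs in the organelle held the mitochondrial aminoacyl-tRNA synthetases and, as Gatb, Gatc and Qrsl1, the subunits of the glutamyl-tRNA amidotransferase. Of these 20, 1 was higher and 2 were lower (15% in all, against 9.23% of all genes). These were Fars2 (log2 fold change 0.42, adjusted p = 0.504), Mars2 (-0.16, adjusted p = 0.477) and Yars2 (-0.17, adjusted p = 0.524). None of these genes passed the adjusted threshold.

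Further lists served as reference. Of 37 nuclear subunits of complex I, 0 had an unadjusted p under 0.05 (median log2 fold change 0.01), and so had 0 of 13 genes of mitochondrial transcription and biogenesis (-0.08) and 0 of 13 markers of mitochondrial content (-0.02). Cytosolic ribosomal proteins gave 11 higher and 0 lower of 76 (14.5%, against 9.23% of all genes tested), against 0 higher and 2 lower of the 78 mitochondrial ones. They had 68 fitted values above 0 (89.5%, against 48.8% of all genes tested) and a median of 0.08. This count of 11 fell to 3 without HT2, 3 without WT3 and 4 without HT5, rose to 18 without HT3, and was 0 without HT5, WT3 and WT5. The share over all genes was 7.18, 6.46, 6.73, 10.9 and 3.87% in these 5 fits. No cytosolic ribosomal protein passed the adjusted threshold, the smallest adjusted p being 0.470 (limma). The sums of cytosolic ribosomal protein mRNAs were 278697 ± 15159 in HT and 264621 ± 9971 in WT. The part of astrocyte and striatal marker RNA in these values was not tested.

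The start regions of the members were read from RefSeq (GRCm38.p6), as 250 bases before and 50 after the start, for 69 of the 78. The letters CCGGAAG, the core bound by ETS factors such as GABP (NRF-2), occurred on either strand in 26 of the 69 (37.7%), against 18.0% of the 11460 tested genes with such a sequence and 12.9% of all 17491. The letters AAGATGGC, bound by YY1, occurred in 12 members (17.4%), against 4.73% of the genes tested. GCGCATGC, an arm of the palindrome bound by NRF1, occurred in 8 members (11.6%), against 5.58%. GABP, YY1 and NRF1 are known regulators of nuclear genes for mitochondrial proteins. The palindrome can hold the NRF1 letters on both strands at once, as it does in Mrpl9, and such a place was counted once per gene. CCAAT was found in 39.1% of members and 42.6% of genes tested, the GC box GGGCGG in 49.3% and 67.2%, the E-box CACGTG in 7.25% and 11.2%, and the TATA box TATAAA in 7.25% and 8.95%. The following windows of 30 bases show the letters in capitals, as they read on the strand of the gene, for members described above and for others with YY1 and NRF1 letters.
Mrps22 (ETS core, chr9:98601672-98601701, minus strand): aacctctcgagCCGGAAGttgctctatcga
Mrps33 (ETS core in reverse complement, chr6:39810887-39810916, minus strand): aagtaaaggggggcgggcCTTCCGGggacg
Mrpl3 (ETS core, chr9:105053238-105053267, plus strand): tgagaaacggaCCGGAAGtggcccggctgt
Mrps18a (ETS core, chr17:46110967-46110996, plus strand): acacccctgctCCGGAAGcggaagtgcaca
Mrps18a (YY1, chr17:46111004-46111033, plus strand): aggtgcgttccAAGATGGCggccctcaggg
Mrpl42 (YY1, chr10:95501904-95501933, minus strand): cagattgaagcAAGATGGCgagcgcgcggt
Mrps27 (YY1, chr13:99344789-99344818, plus strand): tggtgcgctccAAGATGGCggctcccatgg
Mrpl9 (NRF1 arm, chr3:94443297-94443326, plus strand): gaggcgcagctGCGCATGCgcggggtcctt
Mrps18b (NRF1 arm in reverse complement, chr17:35916645-35916674, minus strand): aacggcccgacGCATGCGCactgggagcac

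The first base of these capitals lay 11 bases before the start for Mrps22, 38 bases after it for Mrps33 and 19 bases before it for Mrpl3. In Mrps18a the ETS letters began 26 bases before and the YY1 letters 11 bases after the start. Mrps18a, Mrps12 and Mrps27 were the 3 members with both sets of letters. A match of letters is a description and shows no binding. Members with the ETS letters had a median log2 fold change of -0.05 against -0.03 for the others, those with YY1 letters -0.05 against -0.03, and those with NRF1 letters 0.03 against -0.04.

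A gene that starts on the opposite strand within 1 kilobase was found for 33 members (42.3%), against 14.6% of the 14716 protein-coding genes tested. Several of these neighbours work in mitochondria themselves. Mrpl46 and Mrps11 (chr7:78775236-78783531 and chr7:78783119-78792989 of GRCm38) are members that start 412 bases apart and overlap in their first parts. Mrpl46 read 453, 354, 359, 376 and 334 in the HT mice and 376, 362, 384, 356 and 408 in the WT mice. Mrps11 read 493, 380, 399, 361 and 433 in the HT mice and 407, 409, 397, 422 and 345 in the WT mice. HT1 was the highest mouse for both, and neither passed the threshold between genotypes (limma, adjusted p = 0.969 and 0.850). Mrps12 starts 172 bases from Sars2, the mitochondrial seryl-tRNA synthetase, Mrpl36 29 bases from Ndufs6 and Mrpl47 615 bases from Ndufb5, both subunits of complex I, and Mrpl43 779 bases from Twnk, the helicase of mitochondrial DNA. Of the 31 neighbours tested, among them the members Mrpl46 and Mrps11 as neighbours of each other, 1 had an unadjusted p under 0.05, where the share of all genes tested was 9.23%. This was Fau, 59 bases from Mrpl49, which encodes a protein of the cytosolic ribosome (log2 fold change 0.15, limma, adjusted p = 0.510), while Mrpl49 itself was at -0.03.

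**Figure D5:**
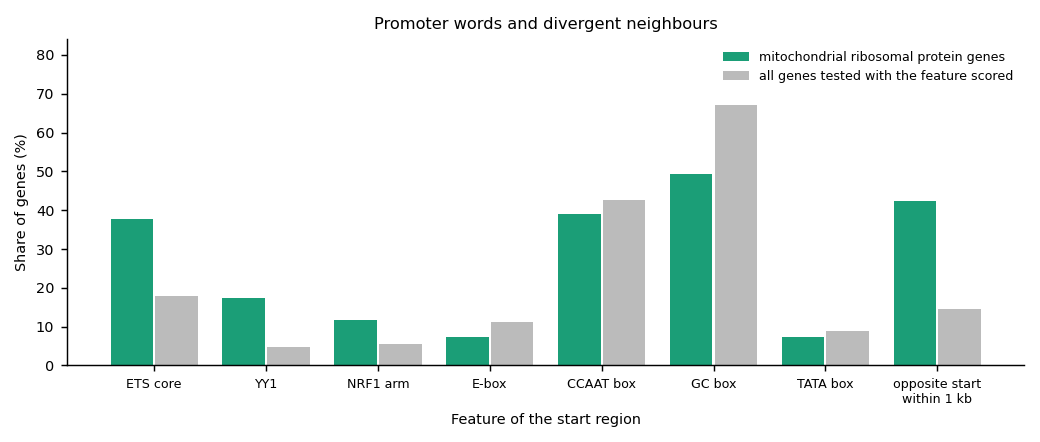
Share of genes in percent (y axis, from 0) whose start region holds each set of letters or that have a start on the opposite strand within 1 kilobase, for the mitochondrial ribosomal protein genes (green; 69 with a promoter sequence, 78 for opposite starts) and for genes tested (grey; 11460 and 14716 protein-coding). The ETS core is at 37.7% against 18.0%, YY1 at 17.4% against 4.73% and opposite starts at 42.3% against 14.6%, whereas the GC box is at 49.3% against 67.2%.

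The members lay on 17 chromosomes, 8 of them on chromosome 17, which also holds Arid1b (chr17:4994332-5347656 of GRCm38). Mrpl18 was the nearest, 7.92 Mb away (chr17:12911349-12916345). It read 689, 675, 616, 645 and 585 in the HT mice and 761, 693, 645, 701 and 634 in the WT mice, with overlap and a log2 fold change of -0.10 (limma, adjusted p = 0.640). The 8 members of chromosome 17 ranged from -0.10 for Mrpl18 to 0.05 for Mrps18b, inside the range of the other members.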

How the data were processed

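RNA of the prefrontal cortex was sequenced from 10 mice. The authors prepared stranded poly-A libraries for paired-end sequencing, and reads were assigned to transcripts with Salmon 1.1.0 on GRCm38 with GC bias correction, summed to genes with tximport and scaled with DESeq2 1.30.1. The deposited values are thus a normalised signal per gene (estimated counts divided by size factors), are not whole, and do not give depth. An overall change of RNA per cell would not be seen.

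Groups and replicate numbers came from the sample titles. Symbols, positions and principal transcripts were taken from GENCODE M21, in which 18205 of 18216 identifiers were found. The test was made on log2(value + 1) for the 16781 genes whose mean reached 10, with limma 3.58.1 in R 4.3.3 (eBayes with a variance trend, no covariate), with Benjamini-Hochberg adjustment and a threshold of 0.05. The fit was tested on simulated data. Fold changes on this scale understate those of low genes. Members were named if they had an unadjusted p under 0.05, were among the 5 highest or 5 lowest fold changes (mean of at least 50) or the 3 highest or 3 lowest levels per kilobase, or for their role (Mrps18a to Mrps18c, Mrpl12, Mrps12, Mrpl44, Mrpl58). In related lists, those with an unadjusted p under 0.05 were named, at most 3 a list. Mrpl23, Mrpl53, Mrps34, Mrpl19, Mrps36, Mrpl18, Mrpl46, Mrps11, the members of the printed windows, the neighbours and the members named only for an alternative or a single mouse were named after their values were seen. The members and all lists were chosen with earlier results of these data known. Words of 31 bases were compared between all transcripts of the annotation. The share of a gene is over the words of all its transcripts, long forms included, so it can understate the share within the principal transcript. Nothing in the labels says that same-numbered mice share a litter or batch, and batches are not given. Python 3.11.15 with numpy 2.4.6, pandas 2.3.3 and matplotlib 3.10.9 was used for the rest.

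The alternatives were pseudocounts of 0.5 and 10, a filter on the mean of 50 or none, scaling by the upper quartile or by quantiles, eBayes without the trend, weights for sample quality, a block for the replicate number, a loess correction for GC content and length (span 0.3) with and without the block, an adjusted p under 0.1, and each mouse left out. Leaving out HT2 and HT5, or HT5, WT3 and WT5, and the union exon length were added after the data were seen.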

Additional observations from a re-analysis of the deposited data

Results flagged for a closer look

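All 78 members, the other genes named with values and the summed levels of the members, of the related lists and of the markers were examined for a mouse far from the other 4 of its group, by the gap to its nearest neighbour over the range of the group against the 95% critical value of Dixon's test (0.71). Of 234 groups, 13 held such a mouse, where chance gives about 11.7. Of these, 11 were among the 156 groups of members, where chance gives about 7.8. WT4 was high for Mrps5, with 1488 where the remaining WT mice had 1104 to 1170, and for Mrpl52 (440 against 335 to 353). Without WT4, 3 members (Mrpl3, Mrpl52 and Mrps5) were higher in HT with an unadjusted p under 0.05, and 0 were lower, while the share over all genes in that fit was 10.9%. WT4 was also high in markers of the olfactory bulb, with a sum of 5563 against 1452 to 2944 in the other WT mice, and HT2 stood apart from the other HT mice with 5606 against 2329 to 3035. Markers of GABAergic neurons summed to 22014 in WT4 against 18705 to 19246 in the other WT mice. The part of these markers in these values was not tested. HT4 was high for Mrps36 (617 against 524 to 548), Mrps7 (1008 against 881 to 905) and Mrps16 (477 against 375 to 403). HT1 was high for Mrpl50 (1022 against 881 to 921) and low for Mrpl43 (790 against 853 to 864). Mrpl22 was high in HT3 (361 against 294 to 305), and Mrpl13 was low in HT2 (480 against 530 to 543). Mrpl34 was low in WT3 (339 against 402 to 410), and Mrpl10 was high in WT5 (1093 against 989 to 1011).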

How the results depend on the processing

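The number of members past the adjusted threshold was 0 in every alternative, an adjusted p under 0.1 included, and Arid1b stayed past it, between -0.63 and -0.56. The 2 members at an unadjusted p under 0.05 became 1 with the replicate block, 1 when the variance trend was dropped and 0 without the striatum-low mice HT5, WT3 and WT5, and with 1 mouse left out they numbered 0 (HT2 or WT3) to 4 (HT1, where Mrpl9 and Mrps17 joined Mrps22 and Mrps33). The total stayed at 2 or rose to 3 with other genes or directions in several alternatives, as 1 lower and 1 higher with upper-quartile or quantile scaling (Mrps22 and Mrps5), 1 lower and 2 higher with sample quality weights (Mrps26, Mrpl3 and Mrps5), 2 lower and 1 higher with the GC and length correction (Mrps22, Mrps33 and Mrps5), and 0 lower and 2 higher without HT5 and without HT2 and HT5 (Mrpl3 and Mrps5). Over all genes tested the share was 9.29, 9.5, 8.74, 9.35, 6.73 and 6.02% in these fits, 8.99% with the block, 8.53% with no trend, 10.6% without HT1, 7.18% without HT2, 6.46% without WT3 and 3.87% without the striatum-low mice. The median log2 fold change of the members stayed below 0, from -0.0384 to -0.0117 with 1 mouse left out, and was -0.0042 without HT2 and HT5. The 22 members named by p, fold change, level or role had 506 fold changes under the alternatives. Of these, 14 reversed and 0 came to pass the adjusted threshold, and 15 of the 22 members never reversed. Members named after their values were seen were not part of this count. Mrps18c was -0.0122 with quantile normalisation, -0.0202 without the striatum-low mice and -0.0257 to 0.0322 with 1 mouse left out (below 0 without HT4, HT5, WT2 or WT3). Mrps21 was -0.0135 without the striatum-low mice, -0.0242 to 0.0634 with 1 mouse left out (below 0 without HT4 or WT3). Without the striatum-low mice Mrps18b was -0.012 and Mrpl1 0.0081. With 1 mouse left out, Mrpl58 ran from -0.0737 to 0.0085 (without WT4), Mrps23 from -0.1755 to 0.015 (without HT4) and Mrpl20 from -0.0498 to 0.0032 (without WT2). The causes were not tested. Deviations of same-numbered mice from their group means had a mean correlation of 0.0375, against -0.00909 between other numbers. The pairs ran from -0.041 (HT4 and WT4) to 0.101 (HT3 and WT3). Of the 10 mice 5 were most alike to their own number, where chance gives 2, a hint from the data and not from the labels, so the numbers were not used as pairs. Depth is unknown, and 5 mice per group left intervals with a median half-width of 0.14 on the log2 scale.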
